A study of Mus musculus with 11 samples.

Results

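The 34 genes described here encode the constitutive proteasome, the protease complex that destroys proteins tagged with ubiquitin. They were chosen by name: Psma1 to Psma7 and Psmb1 to Psmb7 for the core particle, and Psmc1 to Psmc6 and Psmd1 to Psmd14 for the cap. The immunoproteasome genes Psmb8, Psmb9 and Psmb10 were left out of the group and are given only beside it. All 34 were found among the 20145 gene symbols on the array, 14 in the core and 20 in the cap, on 42 probes. Each of the 34 was well above background on all 11 arrays, so none was lost to the filter on dim probes.

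The core particle (20S) is a barrel of stacked rings. The outer alpha rings gate the entry, and the inner beta rings carry the active sites, which lie in Psmb5 (chymotrypsin-like), Psmb6 (caspase-like) and Psmb7 (trypsin-like). The cap (19S) binds ubiquitin chains, removes them, and unfolds the substrate with a ring of ATPases (Psmc1 to Psmc6) before it is fed into the core. Nrf1, the product of Nfe2l1, is a transcription factor held in the endoplasmic reticulum that raises proteasome gene transcription when proteasome activity falls short. Nrf2, the product of Nfe2l2, is the regulator of antioxidant genes that Keap1 keeps low, and proteasome subunit genes have been described among its targets too.

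RNA was measured in livers of 11 untreated male mice, each on its own 1-colour Agilent array: 4 WT, 3 labelled β-catΔEx3 and 4 labelled β-catΔEx3:Myc. The β-catΔEx3 form of β-catenin lacks the part encoded by exon 3, which marks the protein for destruction, and the last group carries Myc, a growth-promoting transcription factor, in addition by its labels. All groups shared a hybrid background, mostly B6SJL with some 129S6. Ages ran from 22 to 40 days, and for slide 4 they were 31 days (WT), 30 days (β-catΔEx3) and 29 days (β-catΔEx3:Myc). The series presents these mice as hepatoblastoma models, applies the words tumor-bearing to every liver, WT included, and counts the last group by c-Myc alone in its design text. The labels used here give neither the promoter or Cre driver nor whether tumour or surrounding tissue was taken. The 7 hepatocyte markers examined, albumin (Alb) among them, were above background on all 11 arrays.

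Values are log2 signals relative to the 75th percentile of their array, so 0 is the signal of the upper-quartile spot and 1 unit is a factor of 2. That percentile lay between 227 and 354.3 intensity units, 47.9% to 52.4% of the probes were above background, and no spot was saturated. The number of arrays, 3 or 4 a group, limits the precision. There were 4 slides. WT 1, 2 and 3 shared slide 1 with no mutant, the first 2 arrays of each mutant group shared slide 2 with no WT, and β-catΔEx3:Myc 3 was alone on slide 3. Only slide 4 held all 3 genotypes: β-catΔEx3 3, β-catΔEx3:Myc 4 and WT 4. Slide and genotype were therefore largely aligned, and once slide is blocked WT meets the mutants only on slide 4, with slide 2 adding the difference between the mutant groups. Adjusted p-values are from limma with Benjamini-Hochberg adjustment over all 22283 items tested, and a gene is called at an adjusted p under 0.05.

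Promoter sequence was examined because these genes are described as Nrf1 and Nrf2 targets, and both factors bind the antioxidant response element. RefSeq promoters (assembly GRCm38.p6, 250 bases before to 50 bases after the start) were given for 28 of the 34 genes, not for Psmb1, Psmb2, Psmb7, Psmc3, Psmd3 and Psmd7. The letters TGACNNNGC were searched on both strands. They were found for 5 of the 28 genes (17.86%), against 13.99% of all 27025 genes in the table and 16.53% of the genes tested on the arrays. Stretches of 120 bases that hold the match follow, 5′ to 3′ along the gene with the match in capitals. Those of Psmb5 (chr14:54617996-54618115, minus strand), Psmb6 (chr11:70525237-70525356, plus strand) and Psmd9 (chr5:123228070-123228189, plus strand) end at the last base before the start. Those of Psmc6 (chr14:45329574-45329693, plus strand) and Psmd12 (chr11:107479278-107479397, plus strand) lie farther upstream, and there the capitals are the reverse complement of the motif.
Psmb5: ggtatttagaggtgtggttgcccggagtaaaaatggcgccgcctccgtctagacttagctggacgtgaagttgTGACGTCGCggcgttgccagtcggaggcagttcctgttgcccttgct
Psmb6: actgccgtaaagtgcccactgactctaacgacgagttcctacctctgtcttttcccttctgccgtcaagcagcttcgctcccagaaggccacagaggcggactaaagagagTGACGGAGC
Psmd9: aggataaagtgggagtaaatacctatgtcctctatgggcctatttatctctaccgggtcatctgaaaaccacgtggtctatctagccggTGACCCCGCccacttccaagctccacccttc
Psmc6: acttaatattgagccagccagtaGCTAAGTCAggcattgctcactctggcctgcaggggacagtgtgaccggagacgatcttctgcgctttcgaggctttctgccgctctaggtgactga
Psmd12: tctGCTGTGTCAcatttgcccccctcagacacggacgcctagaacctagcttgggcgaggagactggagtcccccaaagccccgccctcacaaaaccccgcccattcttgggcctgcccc
The matches begin at position -47 (Psmb5), -9 (Psmb6), -31 (Psmd9), -227 (Psmc6) and -247 (Psmd12) from the start. The share of promoters with this motif among proteasome genes was thus near that of all genes. By comparison, 4 of the 8 promoter-bearing genes of an Nrf2 list given further on held it.

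Other motifs were counted in the same way. The E-box CACGTG, the site bound by Myc with Max, was found for Psma4 and Psmd9, 7.14% of the genes against 8.09% of all genes and 11.23% of the genes tested. In the Psmd9 stretch above it starts at position -51. The Tcf site CTTTGAT, read by the nuclear partners of β-catenin, was found for Psmd4 and Psmd10, 7.14% against 4.29% of all genes and 3.11% of the genes tested, on 2 genes only. A CCAAT box was found for 11 genes, 39.29% against 41.06% and 42.55%. A match describes letters only, and nothing about binding was measured.

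About 1 in 2 proteasome genes passed the test as higher in β-catΔEx3 livers than in WT. Of the 34, 18 were called higher (52.9%) and 0 lower, where 21.6% of all items were called higher and 15.5% lower. The median log2 fold change of the 34 genes was 0.53 (1.44-fold), against 0.10 for all items, and single genes ran from -0.25 for Psmd10 to 1.5 for Psmd9. In 21 genes (61.8%) every β-catΔEx3 array lay above every WT array, as it did for 24.8% of all items, and in none of the 34 was the order reversed (18.8% of all items). Since the proteasome probes are bright, the 2152 items in the middle range of their signals (4.23 to 6.71) were also counted, a choice made after the values were seen. Of these, 35.5% were called higher, with a median of 0.30. The cap count, 14 of 20 (70%), lay above that share, and the core count, 4 of 14 (28.6%), lay below it. By median log2 fold change, the cap (0.56) and the core (0.38) both lay above these items, and all 14 core genes were above 0. Every β-catΔEx3 array lay above every WT array for 14 cap genes (70%) and 7 core genes (50%). The difference between cap and core was not tested.

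In β-catΔEx3:Myc livers 16 of the 34 genes were called higher than in WT (47.1%) and 0 lower, where 25.3% of all items were higher and 17.1% lower. The median was 0.40 (1.32-fold), against 0.14 for all items. In 18 genes (52.9%) all β-catΔEx3:Myc arrays lay above all WT arrays (24.9% of all items), and in none below (17.5%). The 2152 items of similar brightness had a median of 0.30 and 39.2% were called higher. Again the cap (12 of 20, 60%) lay above that share and the core (4 of 14, 28.6%) below it. The median was 0.47 in the cap and 0.34 in the core, where all 14 genes were above 0. All β-catΔEx3:Myc arrays lay above all WT arrays for 12 cap genes (60%) and 6 core genes (42.9%). Both comparisons use the same 4 WT arrays, so they are not independent of each other.

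These calls depend on how slides are treated. With slide as a block, none of the 34 genes was called in either comparison with WT, where 4.16% of all items were called higher and 3.98% lower in β-catΔEx3, and 4.31% higher and 4.46% lower in β-catΔEx3:Myc. At an unadjusted p under 0.05 that fit had 7 and 1 proteasome genes higher and none lower, where 14.5% and 14.8% of all items were higher, and the smallest adjusted p was 0.0517, for Psmd5. The blocked medians were 0.42 and 0.18, with a median standard error over the 34 genes of 0.251 in each comparison, where it had been 0.165 (β-catΔEx3) and 0.153 (β-catΔEx3:Myc). Within slide 4, the β-catΔEx3 array lay above the WT array for 29 of 34 genes, with a median difference of 0.34, where 51.5% of all items lay above. The β-catΔEx3:Myc array of that slide lay above the WT array for 30 of 34 genes, with a median of 0.25 (50.7% of all items above). Neither slide 4 count was made in items of like brightness. On the arrays of the first scan day alone, where WT and the mutants lie on different slides, 17 and 6 genes were called higher, beside 17.6% and 19.6% of all items. As a share of the 34 genes, the 6 in β-catΔEx3:Myc did not exceed that of all items.

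The scaling mattered as well. Quantile normalization gave 12 and 8 genes higher, beside 19.3% and 22.7% of all items. The authors' deposited matrix gave 12 and 8, beside 19.2% and 22.6%. As a share of the 34 genes, the 8 in β-catΔEx3:Myc lay near that of all items under both, unlike the 16 of the reported fit. Another background correction (normexp), counted among the 5 scalings, raised the counts to 22 and 19, beside 21% and 23.8%. A 75th percentile taken over probes detected on all arrays gave 11 and 9, beside 15.3% and 19.9%. With that last scaling the median of all items moved from 0.10 to -0.09 in β-catΔEx3 and from 0.14 to -0.01 in β-catΔEx3:Myc, and the calls over all items went from 4803 higher and 3463 lower to 3412 and 4664, and from 5637 and 3814 to 4427 and 4748. No proteasome gene was called lower under any of the 5 scalings, and 30 (β-catΔEx3) and 26 (β-catΔEx3:Myc) of the 34 stayed above 0 under all of them. The genes called higher under all 5 scalings and with each array left out in turn were 10 in β-catΔEx3 (Psma6, Psmb5, Psmc1, Psmc4, Psmd2, Psmd4, Psmd5, Psmd8, Psmd9 and Psmd11) and 8 in β-catΔEx3:Myc (Psma6, Psmb5, Psmc4, Psmd4, Psmd5, Psmd8, Psmd9 and Psmd11). Neither these counts nor those of genes above 0 under all 5 scalings were made over all items. The count in β-catΔEx3 fell from 18 to 11 without β-catΔEx3 replicate 1, where the share of all items fell from 21.6% to 15.1%. Without WT 2 or WT 3 that count was 12 (16.5% and 17.6% of all items). The count in β-catΔEx3:Myc fell from 16 to 8 without WT 2, where the share of all items fell from 25.3% to 20.2%. It fell to 9 without WT 3 (21.6%) or β-catΔEx3:Myc 1 (22.2%), and to 10 without β-catΔEx3:Myc 3 (22.1%).

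**Figure D1:**
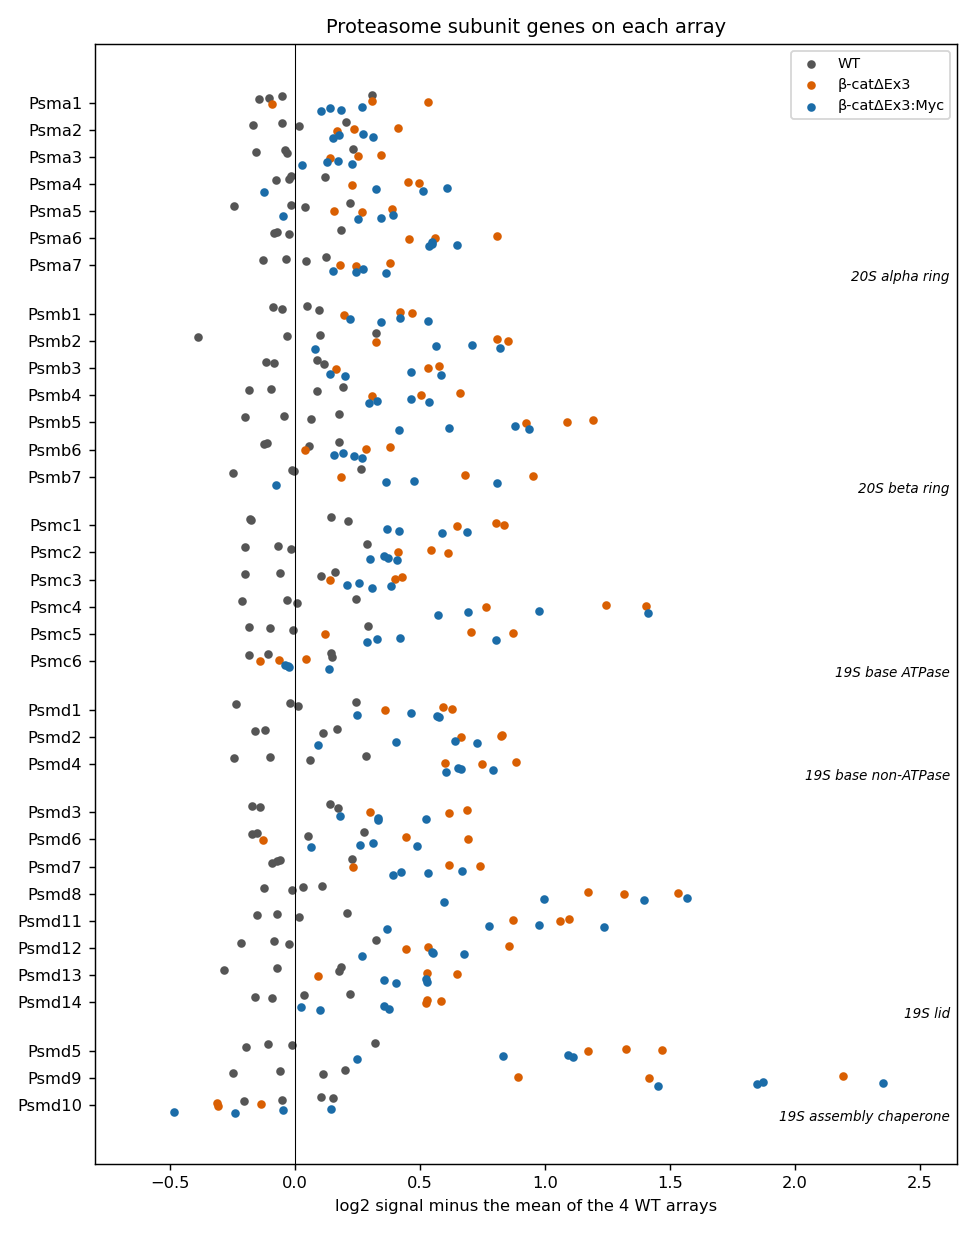
Log2 signal of each proteasome gene minus the mean of the 4 WT arrays (x axis), 1 point per array, by subunit class. In 21 genes all β-catΔEx3 points, and in 18 genes all β-catΔEx3:Myc points, lie to the right of all WT points, and Psmd9, Psmd8 and Psmd5 lie farthest out in β-catΔEx3.

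The alpha ring had the smallest class medians. Of its 7 genes only Psma6 was called higher in either mutant group, and the median was 0.27 in β-catΔEx3 and 0.24 in β-catΔEx3:Myc. Psma6 read 4.65, 4.40, 4.38 and 4.45 in WT, 5.28, 5.03 and 4.93 in β-catΔEx3, and 5.02, 5.02, 5.12 and 5.01 in β-catΔEx3:Myc. All 7 mutant arrays lay above all 4 WT arrays, and the β-catΔEx3:Myc arrays lay close together. The log2 fold change was 0.61 ± 0.14 (SE; adjusted p = 0.00639, limma) in β-catΔEx3 and 0.57 ± 0.13 (adjusted p = 0.00481, limma) in β-catΔEx3:Myc. With slide as a block it was 0.55 (adjusted p = 0.186, limma) and 0.49 (adjusted p = 0.227). The other alpha genes ran from 0.24 (Psma3) to 0.39 (Psma4) in β-catΔEx3, with adjusted p from 0.116 to 0.296 in limma. Under all 5 scalings 6 of the 7 alpha genes were above 0 in β-catΔEx3 (Psma3 turned) and 3 of the 7 in β-catΔEx3:Myc.

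In the beta ring Psmb2, Psmb4 and Psmb5 were called higher in β-catΔEx3, and Psmb1, Psmb4 and Psmb5 in β-catΔEx3:Myc. The class medians were 0.49 and 0.39. Psmb2 rose by 0.66 (adjusted p = 0.0464, limma), a call lost without any of 7 arrays, WT 2, WT 3 and WT 4 among them. Psmb5, which holds the chymotrypsin-like site and is the main target of the drug bortezomib, read 7.64, 7.42, 7.26 and 7.53 in WT, 8.66, 8.55 and 8.39 in β-catΔEx3, and 8.34, 8.08, 8.40 and 7.88 in β-catΔEx3:Myc. The mutant arrays all lay above WT, with β-catΔEx3:Myc 4 the lowest of them. Psmb5 was 2.10-fold higher in β-catΔEx3 (log2 1.07 ± 0.17 SE, adjusted p = 0.000978, limma), the smallest adjusted p among the 34 genes there, and 1.64-fold higher in β-catΔEx3:Myc (0.71 ± 0.16, adjusted p = 0.00433). Its second probe gave 1.30 and 0.93. With slide as a block the values were 0.82 (adjusted p = 0.0847, limma) and 0.39 (adjusted p = 0.345), and within slide 4 they were 0.86 and 0.35.

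The other catalytic genes were not called. Psmb6, the caspase-like subunit, read 7.14, 6.85, 6.84 and 7.02 in WT, 7.34, 7.25 and 7.0 in β-catΔEx3, and 7.16, 7.12, 7.20 and 7.23 in β-catΔEx3:Myc. WT 1 and the lowest β-catΔEx3 array overlapped, and the log2 fold changes were 0.23 (adjusted p = 0.214, limma) and 0.21 (adjusted p = 0.212). Under quantile normalization, and under the authors' matrix, the sign of Psmb6 turned, to -0.02 and -0.11 with quantile normalization. Psmb7, the trypsin-like subunit, read 5.0, 4.73, 4.74 and 4.49 in WT, 5.42, 5.69 and 4.92 in β-catΔEx3, and 5.22, 5.11, 5.55 and 4.66 in β-catΔEx3:Myc. Its lowest mutant values were those of slide 4, which also held the lowest WT value, and the log2 fold changes were 0.61 (adjusted p = 0.0732, limma) and 0.39 (adjusted p = 0.185).

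Psmb4 and Psmb1 are structural beta subunits with no active site. Psmb4 read 7.18, 6.89, 6.80 and 7.07 in WT, 7.65, 7.49 and 7.29 in β-catΔEx3, and 7.45, 7.31, 7.52 and 7.28 in β-catΔEx3:Myc. The groups did not overlap, and the log2 fold changes were 0.49 (adjusted p = 0.0270, limma) and 0.41 (adjusted p = 0.0373). Psmb1 read 5.01, 4.87, 4.91 and 5.06 in WT, 5.38, 5.43 and 5.16 in β-catΔEx3, and 5.38, 5.18, 5.50 and 5.30 in β-catΔEx3:Myc. It too was above WT on every mutant array, and the log2 fold changes were 0.36 (adjusted p = 0.0599, limma) and 0.38 (adjusted p = 0.0336). The calls of both genes in β-catΔEx3:Myc were lost without WT 2, WT 3, β-catΔEx3:Myc 1 or β-catΔEx3:Myc 3, and that of Psmb1 also without WT 1. That of Psmb4 was also lost without WT 4 or β-catΔEx3:Myc 2, and in β-catΔEx3 without WT 2, WT 3 or replicates 1 or 2 of that group.

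**Figure D2:**
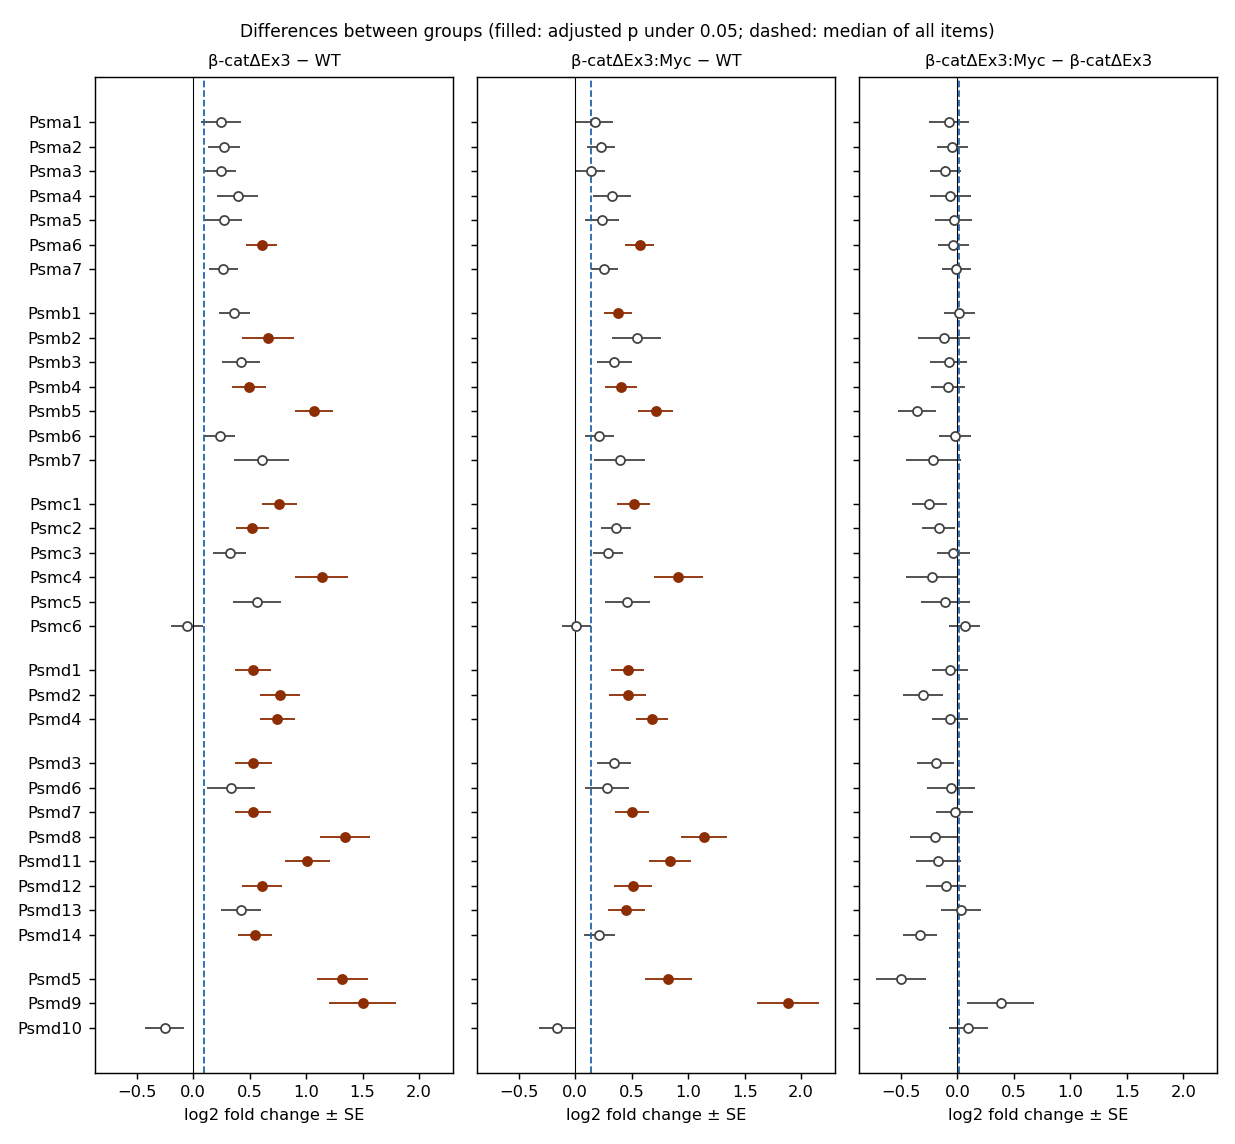
Log2 fold change with its standard error for each proteasome gene in the 3 comparisons. Filled points are called (adjusted p under 0.05, limma), the dashed line is the median of all items, and no point is filled in the comparison of the 2 mutant groups.

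In the ATPase ring of the cap, Psmc1, Psmc2 and Psmc4 were called higher in β-catΔEx3, and Psmc1 and Psmc4 in β-catΔEx3:Myc, with class medians of 0.55 and 0.41. Psmc4 read 4.61, 4.33, 4.15 and 4.37 in WT, 5.61, 5.77 and 5.13 in β-catΔEx3, and 5.34, 5.05, 5.78 and 4.93 in β-catΔEx3:Myc. All mutant arrays were above WT, and the arrays of slide 4 were the lowest of each mutant group. Psmc4 was 2.20-fold higher in β-catΔEx3 (log2 1.14 ± 0.23 SE, adjusted p = 0.00378, limma) and 1.88-fold higher in β-catΔEx3:Myc (0.91 ± 0.21, adjusted p = 0.00634). Blocked by slide it was 0.86 (adjusted p = 0.102, limma) and 0.47 (adjusted p = 0.319).

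Psmc1 read 7.02, 6.69, 6.70 and 7.08 in WT, 7.68, 7.71 and 7.52 in β-catΔEx3, and 7.24, 7.29, 7.56 and 7.46 in β-catΔEx3:Myc. The groups did not overlap, and the log2 fold changes were 0.76 (adjusted p = 0.00380, limma) and 0.52 (adjusted p = 0.0151). The second of these calls was lost without WT 2. Psmc2 was 0.52 higher in β-catΔEx3 (adjusted p = 0.0167, limma), not called without replicate 1 or 3 of that group, and 0.36 in β-catΔEx3:Myc (adjusted p = 0.0517). Psmc6, in the same ring, gave no such difference: it read 3.50, 3.24, 3.17 and 3.50 in WT, 3.40, 3.29 and 3.21 in β-catΔEx3, and 3.31, 3.32, 3.33 and 3.49 in β-catΔEx3:Myc. Its log2 fold changes were -0.05 ± 0.14 SE and 0.01 ± 0.13 (n = 4, 3 and 4 arrays).

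The non-ATPase subunits of the base were called higher in both groups, 3 of 3 each. They are the large scaffolds Psmd1 and Psmd2 and the ubiquitin receptor Psmd4, and the class medians were 0.74 and 0.47. Psmd4 read 6.49, 6.10, 5.96 and 6.26 in WT, 7.09, 6.80 and 6.95 in β-catΔEx3, and 6.86, 6.87, 7.0 and 6.81 in β-catΔEx3:Myc. The mutant arrays all lay above WT, and the log2 fold changes were 0.74 ± 0.16 (SE, adjusted p = 0.00430, limma) and 0.68 ± 0.14 (adjusted p = 0.00371). Psmd2 and Psmd1 rose by 0.77 and 0.53 in β-catΔEx3 and by 0.47 and 0.46 in β-catΔEx3:Myc, and Psmd1 was not called in either group without WT 2 or WT 3. The β-catΔEx3:Myc call of Psmd2 was lost without any of 7 arrays, these 2 among them.

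In the lid, 6 of 8 genes were called higher in β-catΔEx3 and 5 of 8 in β-catΔEx3:Myc, with medians of 0.54 and 0.48. Psmd8, a structural lid subunit, read 4.24, 4.17, 4.01 and 4.12 in WT, 5.31, 5.67 and 5.45 in β-catΔEx3, and 5.71, 5.13, 5.53 and 4.73 in β-catΔEx3:Myc. The WT arrays lay close together and below all mutant arrays. The gene was 2.53-fold higher in β-catΔEx3 (log2 1.34 ± 0.22 SE, adjusted p = 0.00123, limma) and 2.20-fold higher in β-catΔEx3:Myc (1.14 ± 0.20, adjusted p = 0.00150). Blocked by slide it was 1.11 (adjusted p = 0.0961, limma) and 0.83 (adjusted p = 0.180), and within slide 4 it was 1.33 and 0.61.

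Psmd11, a structural lid subunit described as limiting for the assembly of capped proteasomes, was 1.01 ± 0.20 (SE; adjusted p = 0.00332, limma) higher in β-catΔEx3 and 0.84 ± 0.19 (adjusted p = 0.00459) higher in β-catΔEx3:Myc. Psmd14, the enzyme that cuts ubiquitin chains off substrates, was called in β-catΔEx3 (0.54, adjusted p = 0.0163, limma) and not in β-catΔEx3:Myc (0.21, adjusted p = 0.242). Its β-catΔEx3 arrays had the smallest spread of all 34 genes in that group (SD 0.034, n = 3). Psmd3, Psmd7 and Psmd12 rose in β-catΔEx3 by 0.53 to 0.61, and Psmd7, Psmd12 and Psmd13 rose in β-catΔEx3:Myc by 0.45 to 0.51. Each of these calls of Psmd3, Psmd7, Psmd12 and Psmd13 was lost without WT 2 and without WT 3. Psmd6 was called in neither (0.34 and 0.28).

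The widest change was in Psmd9, one of 3 genes whose products help to assemble the cap base and are absent from the finished complex. Psmd9 (the p27 chaperone) read 2.42, 2.16, 1.98 and 2.34 in WT, 4.42, 3.12 and 3.64 in β-catΔEx3, and 4.10, 4.58, 4.08 and 3.68 in β-catΔEx3:Myc. All mutant arrays were above WT, with a wide spread in β-catΔEx3 (SD 0.655, n = 3). It was 2.83-fold higher in β-catΔEx3 (log2 1.5 ± 0.30 SE, adjusted p = 0.00336, limma) and 3.69-fold higher in β-catΔEx3:Myc (1.88 ± 0.28, adjusted p = 0.000494). Its second probe gave 0.94 and 1.21. Blocked by slide the values were 1.12 (adjusted p = 0.235, limma) and 1.52 (adjusted p = 0.126), and within slide 4 they were 1.30 and 1.34.

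Psmd5 (the S5b chaperone) read 2.44, 2.01, 2.11 and 1.92 in WT, 3.44, 3.59 and 3.29 in β-catΔEx3, and 3.21, 2.95, 3.23 and 2.37 in β-catΔEx3:Myc. The β-catΔEx3 arrays were clear of WT, and β-catΔEx3:Myc 4 lay below WT 1. It rose by 1.32 ± 0.22 (SE; adjusted p = 0.00146, limma) and 0.82 ± 0.21 (adjusted p = 0.00920). Blocked by slide it was 1.20 (adjusted p = 0.0517, limma) and 0.61 (adjusted p = 0.227). Psmd10 (gankyrin), which also binds the tumour suppressor Rb and has been studied as a liver oncoprotein, was called in neither group. Its values were 1.02, 1.07, 0.87 and 0.71 in WT, 0.60, 0.78 and 0.61 in β-catΔEx3, and 1.06, 0.87, 0.43 and 0.68 in β-catΔEx3:Myc. The log2 fold changes were -0.25 ± 0.17 and -0.16 ± 0.16 (SE). Its second probe gave 0.12 and 0.29, so the sign depended on the probe.

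**Figure D3:**
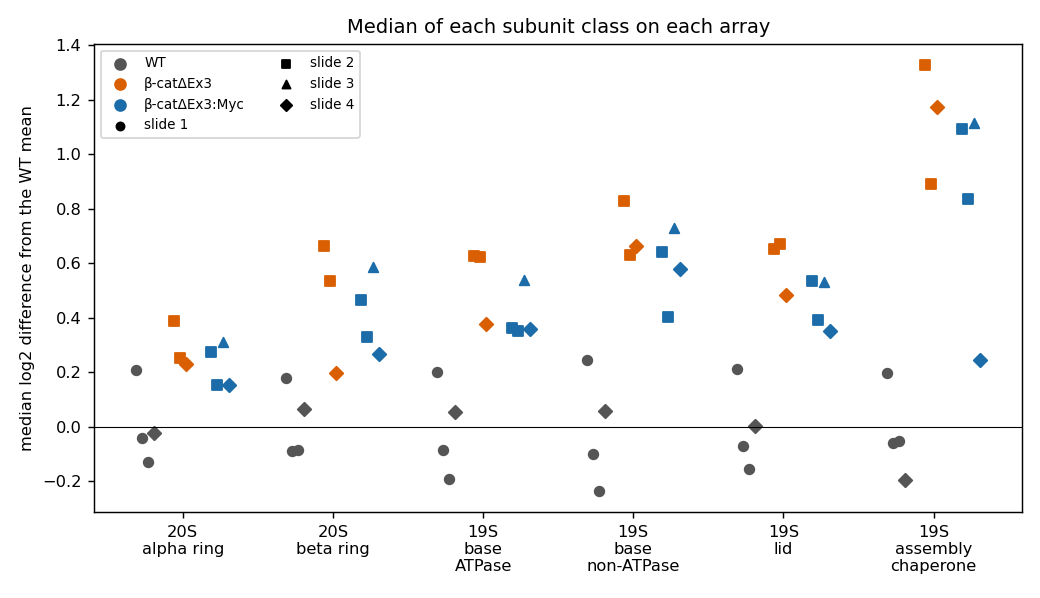
Median log2 difference from the WT mean over the genes of each subunit class, 1 point per array, with the slide as the symbol. On slide 4 (diamonds) the mutant arrays lie above the WT array in every class, and in the alpha ring WT 1 (0.21) lies above the lowest β-catΔEx3:Myc arrays (0.15).

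No gene separated the 2 mutant groups at the threshold. Between the 2 mutant groups 0 of 34 genes were called in either direction, where 0.108% of all items were higher and 0.144% lower. At an unadjusted p under 0.05 there were 2 genes, both lower in β-catΔEx3:Myc: Psmd5 (log2 -0.50 ± 0.22 SE, adjusted p = 0.480, limma) and Psmd14 (-0.33 ± 0.15, adjusted p = 0.484). The share of all items under that unadjusted threshold was not counted. The 95% intervals of the other 32 included 0 and reached at most 1.04 (Psmd9), so differences of moderate size remain possible.

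Most of the small differences pointed down. The log2 fold change was below 0 for 29 of 34 genes, with a median of -0.08 against 0.01 for all items, and 5 lay above that all-item median. The sign count moved with single arrays. Without β-catΔEx3 1, 15 genes were above 0, with a median of -0.02. Without β-catΔEx3 2 there were 11 above 0, and without β-catΔEx3 3 there were 3. Psmc2, Psmd5 and Psmd14 (8.82%) had all β-catΔEx3:Myc arrays below all β-catΔEx3 arrays, as did 4.19% of all items, and no gene had the opposite order (3.9% of all items). On slide 2, which held 2 arrays of each mutant group, the β-catΔEx3:Myc mean was above the β-catΔEx3 mean for 2 of 34 genes, with a median of -0.15, where 51.2% of all items were above. On slide 4 it was above for 15 of 34, with a median of -0.01, where 48.6% of all items were above. The arrays thus differed between slides, and with slide as a block no gene passed the threshold between the mutant groups either, where 0.516% of all items were called higher and 0.283% lower. The smallest adjusted p in that limma fit was 0.254 (Psmd5), and 4 genes had an unadjusted p under 0.05, all lower. The share of all items lower at that unadjusted threshold was not counted.

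Within each group, most of the 34 genes had their lowest value on the same array. WT 1 was the highest WT array for 27 of the 34 and WT 3 the lowest for 22. In β-catΔEx3, replicate 3 was the lowest for 25. In β-catΔEx3:Myc, replicate 3 was the highest for 22 and replicate 4 the lowest for 20. In distance from the WT mean, the median over the 34 genes was 0.61, 0.57 and 0.29 on the β-catΔEx3 arrays and 0.46, 0.33, 0.54 and 0.29 on the β-catΔEx3:Myc arrays. On the WT arrays it was 0.20, -0.06, -0.16 and 0.02. The median SD within groups was 0.170 in WT, 0.154 in β-catΔEx3 and 0.163 in β-catΔEx3:Myc, against 0.242, 0.323 and 0.308 over all items. The proteasome genes were also brighter, with a median level of 5.26 against -0.06 for all items. The order of the arrays was not counted over all items. Neither the spread nor that order was examined in items of like brightness.

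The genes of the Nrf1 pathway were mixed. Nfe2l1 itself read -0.51, -0.70, -0.68 and -0.93 in WT, -0.05, 0.01 and 0.57 in β-catΔEx3, and -0.31, -0.25, -0.16 and -0.18 in β-catΔEx3:Myc. The mutant arrays were all above WT, with log2 fold changes of 0.88 (adjusted p = 0.00340, limma) and 0.48 (adjusted p = 0.0347). With slide as a block it was 1.34 (adjusted p = 0.0225, limma) and 0.92 (adjusted p = 0.0617). Of the 6 measured genes of the list, 3 were higher and 2 lower in β-catΔEx3, and 2 were higher and 2 lower in β-catΔEx3:Myc. Ngly1, which strips sugars from Nrf1, rose by 0.55 and 0.47, and Vcp, which extracts it from the membrane, was 0.61 (adjusted p = 0.0343, limma) and 0.43 (adjusted p = 0.0852). Sel1l and Syvn1, the ubiquitin ligase pair that keeps Nrf1 scarce at rest, fell by 0.95 and 0.67 in β-catΔEx3 and by 0.95 and 0.83 in β-catΔEx3:Myc. Ddi2, the protease that activates Nrf1, was called in neither (-0.48 and -0.33). Once slide was blocked, Nfe2l1 in β-catΔEx3 was the one call of this list: Ngly1 was 0.16 and 0.12, Vcp 0.39 and 0.07, Sel1l -0.89 and -0.81, and Syvn1 -0.40 and -0.61.

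Of the 10 genes of the Nrf2 list, 9 were called higher in each mutant group, and the largest of these changes exceeded those of any proteasome gene. Srxn1 (sulfiredoxin) rose by 4.92 and 4.33, Nqo1 (quinone reductase) by 5.02 and 4.38, and Txnrd1 (thioredoxin reductase) by 1.94 and 1.52. Keap1, the inhibitor of Nrf2, rose by 0.66 and 0.42. Nfe2l2 was not called (-0.18 and -0.33). With slide as a block 5 and 3 of the 10 were still called. Slc7a11, the cystine transporter, was not well above background on any WT array.

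Partners of the cap, which bring substrates to it or edit their ubiquitin chains, were called higher in part. Of 12 genes, 8 were called higher in β-catΔEx3 and 9 in β-catΔEx3:Myc, with medians of 0.58 and 0.57 and none lower. The ubiquitin receptor Adrm1 rose by 1.13 and 1.14, the shuttle factor Ubqln2 by 1.17 and 1.04, and the ligase Ube3c by 1.08 and 0.83. The deubiquitinases Usp14 and Uchl5 rose by 0.56 and 0.60 in β-catΔEx3. Sem1, the smallest lid subunit, was called in neither (-0.05 and 0.00). Blocked by slide, Adrm1 alone was called, in β-catΔEx3 (adjusted p = 0.0335, limma).

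The chaperones that assemble the core were mostly not called: 0 of 5 in β-catΔEx3, and Psmg4 alone in β-catΔEx3:Myc (0.85, adjusted p = 0.00489, limma). Pomp, the maturation factor of the core, gave 0.00 and -0.25. Among the activators and the inhibitor of the core, Psme3 (PA28γ, the nuclear activator) fell by 2.23 and 1.55, from 2.49, 2.35, 1.91 and 3.25 in WT to 0.57, 0.17 and 0.06 in β-catΔEx3 and 0.26, 1.24, 1.48 and 0.82 in β-catΔEx3:Myc. The groups were separate, and both calls held with slide as a block (adjusted p = 0.0141 and 0.0235, limma). Psme1, Psme2 and Psme4 were called in neither group, and Psmf1, the inhibitor, was 0.60 higher in β-catΔEx3:Myc.

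The immunoproteasome genes went the other way. Psmb8, which replaces Psmb5 in cells of the immune system and under interferon, read 3.82, 4.86, 3.76 and 4.05 in WT, 1.03, 2.12 and 0.71 in β-catΔEx3, and 1.32, 1.33, 1.49 and 2.33 in β-catΔEx3:Myc. Every mutant array lay below every WT array, with log2 fold changes of -2.84 (adjusted p = 0.000524, limma) and -2.50 (adjusted p = 0.000464). Psmb9, the counterpart of Psmb6, was -1.78 in each group, and Psmb10, the counterpart of Psmb7, was -1.40 and -1.02. All 3 were called lower in both groups. In the fit blocked by slide none was called, and the log2 fold changes were -2.71 and -2.33 for Psmb8, -1.52 and -1.49 for Psmb9, and -1.49 and -0.96 for Psmb10. They moved beside markers of other cells: 6 of 6 macrophage markers were called lower in each group (medians -3.08 and -3.02), none of them with slide as a block (-2.27 and -2.21), and their summed level was 7.74 to 8.37 in WT, 4.19 to 5.73 in β-catΔEx3 and 4.01 to 5.89 in β-catΔEx3:Myc. Of 5 lymphocyte markers 3 were called lower in each group, among them Ms4a1, which was not well above background on any mutant array, and Cd3e was called higher in β-catΔEx3:Myc. With slide as a block no lymphocyte marker was called in either group. In these bulk livers fewer cells of a type and less RNA per cell cannot be told apart, and the part of other cell types in the changes of the proteasome genes was not tested.

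**Figure D4:**
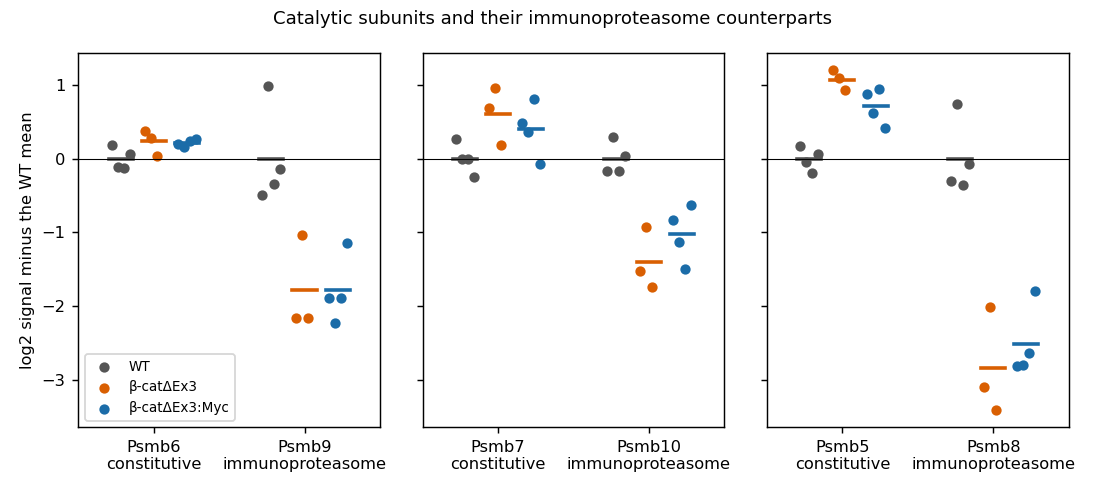
Log2 signal minus the WT mean for the 3 catalytic subunits and the immunoproteasome subunits that take their place, 1 point per array, with group means as bars. The immunoproteasome genes lie below every WT array on all mutant arrays. Of the constitutive genes, Psmb5 alone lies above every WT array on all mutant arrays.

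Hepatocyte markers were lower in part, 4 of 7 called lower in each group, while Alb was not called (-0.19 and -0.29). Their summed level was 12.40 to 12.76 in WT, 11.71 to 11.98 in β-catΔEx3 and 11.55 to 12.07 in β-catΔEx3:Myc. Endothelial markers were called lower for 3 and 4 of 6, and stellate cell markers for 2 and 5 of 6. Of 5 neutrophil markers Elane alone was called in β-catΔEx3 (1.85), where Mpo (-1.91), S100a8 (-2.04) and S100a9 (-2.07) lay below WT on every array without passing the test, and Mpo alone was called in β-catΔEx3:Myc (2.6). Erythroid markers were called lower for 2 and 1 of 4. Of 4 biliary markers Krt19 alone was called, higher in β-catΔEx3 (0.93, adjusted p = 0.0444, limma). With slide as a block, 1 hepatocyte marker was called lower in each group. Endothelial markers were then called lower for 0 and 2, stellate cell markers for 1 and 2, and erythroid markers for 0 and 0. Neutrophil markers were called higher for 0 and 1, and Krt19 was not called (adjusted p = 0.155, limma). The part of these shifts in the proteasome values was not tested.

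**Figure D5:**
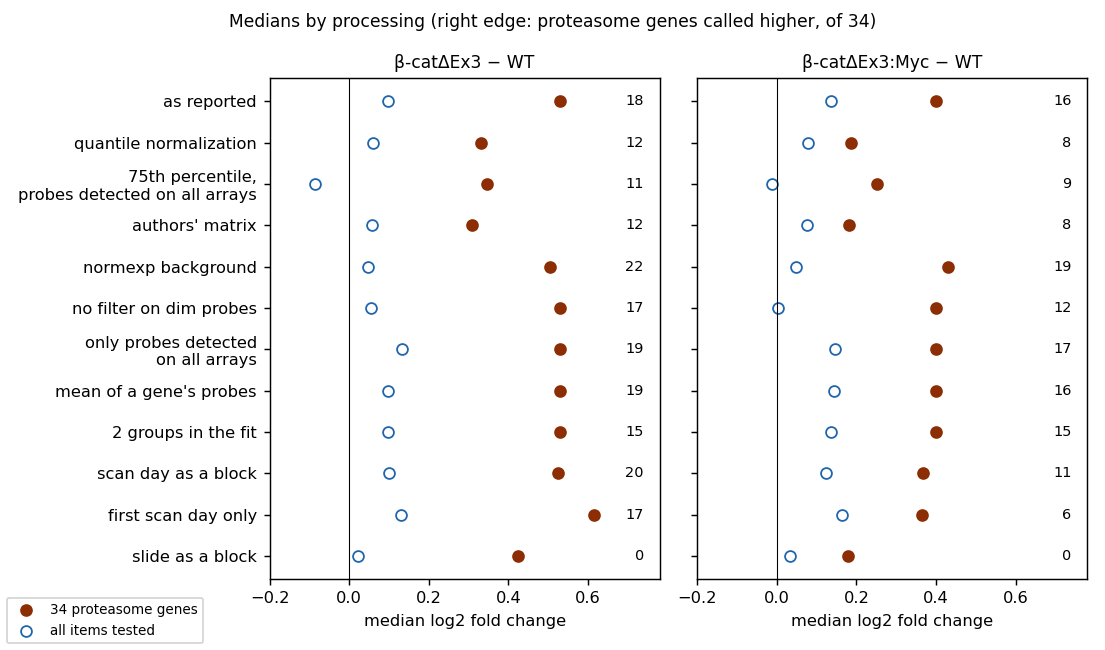
Median log2 fold change of the 34 proteasome genes (filled) and of all items (open) under each processing, with the number of proteasome genes called higher at the right edge. The proteasome median stays to the right of the median of all items in every row, and the count falls from 18 and 16 as reported to 0 with slide as a block.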

How the data were processed

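RNA from 11 mouse livers was measured on 1-colour Agilent arrays. Images were read with Feature Extraction 10.7.1.1 per the file headers, and the authors deposited processed signals as background-corrected intensity. A deposited matrix by the authors holds log2 values, each column with a median of 4.51, which matched quantile-normalized processed signals and was used as an alternative.

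Of 55681 probes, spots flagged as outliers (137 to 209 an array) were left out and log2 values of a probe's spots were averaged. Each array's 75th percentile was subtracted. The filter kept 29697 probes that were well above background on 3 or more arrays, the probe with the highest mean stood for a gene, and probes with no symbol in the RefSeq table were grouped by accession, leaving 22283 items. limma 3.58.1 (R 4.3.3) fitted 3 group means to all 11 arrays (residual df 8, prior df 2.51), 2-sided. The script was tested on simulated data. Nothing in the labels says that the mice came from separate litters, so p-values measure the spread between these samples.

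Every member could be named. Values per array are given for up to 3 called genes per class with the smallest adjusted p in β-catΔEx3:Myc against WT. The classes for this choice were the alpha ring, the beta ring, the ATPases and all other cap genes together. Values per array are also given for Psmb5, Psmb6 and Psmb7, and for Psmc6, Psmd5, Psmd10, Nfe2l1, Psme3 and Psmb8, added after their values were seen. The members, lists and tests were chosen with earlier results of these data known. Alternatives were other scalings, background correction, probe filters, probe averaging, the slide block, 2-group fits and each array left out. The scan day alternatives were added after seeing the data. Some results on other genes are not reported here.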

Additional observations from a re-analysis of the deposited data

Results flagged for a closer look

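In each group of 4 arrays the gap between the outermost array and its neighbour was compared with the group's range for every proteasome gene. Of 68 such groups 3 passed Dixon's 95% limit, where chance gives about 1 in 20. WT replicate 1 was high for Psmd7 (ratio 0.896), reading 4.26 against 3.94 to 3.97 on the other WT arrays. β-catΔEx3:Myc replicate 3 was high for Psma6 (ratio 0.894), reading 5.12 against 5.01 to 5.02. β-catΔEx3:Myc replicate 4 was high for Psmc6 (ratio 0.902), reading 3.49 against 3.31 to 3.33. The groups of 3 β-catΔEx3 arrays were not tested in this way.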

How the results depend on the processing

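No direction of a called proteasome gene turned under any of the 22 alternatives, and in the comparison of the mutant groups none was called under any of them. Against WT, single genes kept their side of the threshold in 652 of 748 cases in β-catΔEx3 and 638 of 748 in β-catΔEx3:Myc. These cases include the genes not called in the reported fit. A call was lost in 75 and 100 cases, all from the 18 and 16 called genes, and gained in 21 and 10. Quantile normalization moved the medians to 0.33 and 0.19 and the β-catΔEx3:Myc count to 8. The authors' matrix gave 0.31, 0.18 and 8. Scaling to the 75th percentile of the probes detected everywhere moved the β-catΔEx3 median to 0.35 and the counts to 11 and 9. Slide as a block gave counts of 0 and 0 and moved the β-catΔEx3:Myc median to 0.18. The arrays of the first scan day, an alternative added after seeing the data, moved the β-catΔEx3:Myc count to 6. The cause of these moves was not tested. With each array left out in turn the counts ranged from 11 to 22 and from 8 to 17, and the medians from 0.45 to 0.61 and from 0.35 to 0.48. In those fits the share of all items called higher ranged from 15.1% to 21.9% and from 20.2% to 26.3%. The median of the mutant comparison ranged from -0.16 to -0.02, and counts of lower genes stayed at 0. No paired analysis was possible because the labels carry no replicate numbers shared between groups. All 34 genes were well above background on all 11 arrays, though the sign of Psmd10 depended on the probe. The number of arrays and the alignment of slide with genotype did.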
